A study of Mus musculus with 4 samples.

Results

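The genes described here are 10 transcripts of the lung capillary endothelium and of adrenomedullin signalling, of the 41079 genes in the table. They are the ligands Adm and Apln, the receptors Calcrl, Ramp2, Ednrb and Kdr, and the vessel genes Car4, Gpihbp1, Plvap and Vwf. They were chosen by name, for their roles, and not by a threshold on their values, but with earlier results of these data known. Whole lungs of female C57BL/6 mice of 8 to 14 weeks were sequenced, in 4 libraries with 1 library per condition. The normal lungs, WT and Rab44-KO, are labelled as untreated, although the protocol shared by all samples also names a PBS challenge, so which of these the normal mice received is not certain. The OVA-induced lungs of both genotypes came from mice sensitised with ovalbumin (OVA) in alum, then challenged with intranasal OVA on days 17 to 20 and killed the day after, a model of allergic airway inflammation. The Rab44-KO line was made by CRISPR/Cas9, lacks Rab44, a large Rab GTPase, in the whole animal, and its WT mice were littermates. The labels do not give the number of mice behind a library. With 1 library per condition no difference below has a replicate check and none was tested, so each interval given is a 95% interval that covers counting error only.

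Adrenomedullin is a secreted peptide encoded by Adm that dilates vessels and keeps the endothelial barrier tight. It binds a receptor made of the G protein-coupled chain encoded by Calcrl and a small accessory protein, which is RAMP2 or RAMP3 for adrenomedullin, while RAMP1 turns the same chain into the receptor for CGRP. The alveolar capillary bed of the mouse holds a pair of endothelial cell types. Aerocytes are wide, thin cells at the gas exchange surface and are marked by Car4, Ednrb and Apln. General capillary cells, which carry the apelin receptor Aplnr and act as progenitors, are marked by Gpihbp1, which holds lipoprotein lipase on the vessel wall, and by Plvap, a component of the diaphragms of fenestrae and caveolae. Kdr is the main VEGF receptor of endothelium, and Vwf, the clotting glycoprotein von Willebrand factor, is stored by endothelial cells of larger vessels and by platelets.

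The libraries held 18112901 to 19910236 counts, and 24316 to 25003 genes were detected in each. Rab44 had 251 counts in WT and 1 in Rab44-KO for normal mice, and 810 and 0 after OVA, and was thus at or near 0 in both libraries labelled Rab44-KO. Below, a row of 4 values follows that order: first the normal pair, then the OVA-induced pair, each with WT before Rab44-KO. The alveolar epithelial markers Sftpc and Ager were abundant in all 4 libraries, at 9290 to 18690 and 997 to 1916 CPM (counts scaled to a library of 1000000). Between the OVA-induced libraries, log2 fold changes (log2FC) of Rab44-KO over WT followed gene length, with a median of -0.47 in the shortest 25% of genes and 0.34 in the longest 25%. The summed level of 10 leukocyte markers was 675, 675, 1764 and 1014 CPM. That of 8 cardiac muscle markers, which mouse lungs carry in the walls of pulmonary veins, was 713, 788, 319 and 727 CPM. Every marker of both lists was above 0 in all libraries. The part of length and of these cell types in the results below was not tested. In whole lung RNA, fewer endothelial cells and less RNA per endothelial cell cannot be told apart.

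The promoters of the ligands Adm and Apln are shown because these genes lay furthest apart among the 10 from normal to OVA-induced Rab44-KO lungs (log2FC 2.39 and -2.07), and because adrenomedullin is a classical target of the hypoxia-inducible factors, whose binding core is ACGTG or GCGTG. Each line gives the 250 bases before the RefSeq gene start in GRCm38.p6, on the strand of the gene. Capitals mark a match to ACGTG or GCGTG on either strand, so that a match on the opposite strand reads CACGT or CACGC. The Adm stretch is chr7:110627407-110627656 on the plus strand and the Apln stretch is chrX:48034854-48035103 on the minus strand.
Adm: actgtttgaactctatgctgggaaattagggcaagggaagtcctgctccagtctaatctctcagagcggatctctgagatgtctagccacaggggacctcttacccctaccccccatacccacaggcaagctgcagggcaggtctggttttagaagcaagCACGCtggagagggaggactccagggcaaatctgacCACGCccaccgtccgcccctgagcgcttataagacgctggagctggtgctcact
Apln: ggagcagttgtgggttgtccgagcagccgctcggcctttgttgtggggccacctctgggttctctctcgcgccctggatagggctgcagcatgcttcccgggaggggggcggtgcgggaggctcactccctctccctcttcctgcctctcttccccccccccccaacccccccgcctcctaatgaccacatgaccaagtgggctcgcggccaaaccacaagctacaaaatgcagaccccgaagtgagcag

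The Adm stretch held 2 matches, both to GCGTG on the opposite strand, beginning 90 and 54 bases before the start, and the Apln stretch held none. Of the 10 genes, 6 were found in the promoter table. Kdr held 2 matches, Ednrb held 1, and Calcrl and Car4 held none. In the same 250 bases of all 32851 promoters 38.6% held at least 1 match and 16.7% held at least 2, so these letters are common, and whether any factor bound them was not measured.

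Set per length, as TPM (transcripts per 1000000, which divides by gene length), the receptor chains were the most abundant of the 10 transcripts and the ligands the least. In normal WT lungs Ramp2 stood at 868 TPM and Calcrl at 615 TPM, followed by Plvap at 531, Gpihbp1 at 338, Car4 at 298, Kdr at 151, Vwf at 121, Ednrb at 88.7, Apln at 51.4 and Adm at 6.75 TPM. The order was the same in normal Rab44-KO lungs, where Kdr and Vwf were close, at 154 and 148 TPM. Under OVA-induced conditions Car4 passed Gpihbp1 and Vwf passed Kdr in WT lungs. In OVA-induced Rab44-KO lungs Calcrl, at 826 TPM, stood above Ramp2, at 647 TPM, and Adm, at 42.1 TPM, stood above Apln, at 13.9 TPM, which was then the lowest of the 10. Vwf, at 248 TPM, also stood above Car4 and Kdr in that library, at 191 and 152 TPM. No neighbours in any library had overlapping Poisson intervals, but without replicates the spread between animals is unknown and the order of close neighbours cannot be fixed.

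**Figure D1:**
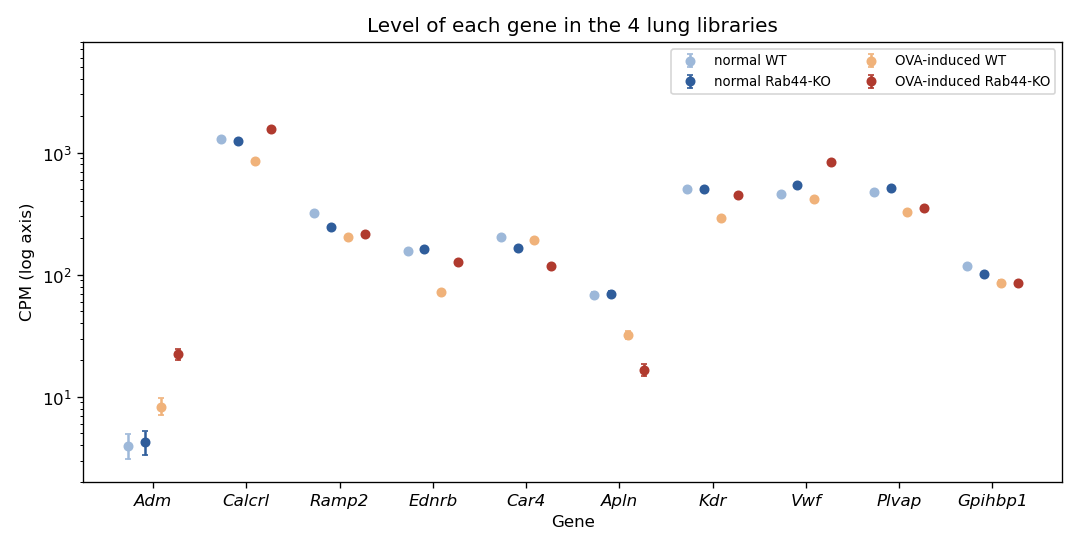
Level of each of the 10 genes, in CPM on a log axis, in the WT and Rab44-KO libraries of normal mice and the WT and Rab44-KO libraries of OVA-induced mice, 1 point per library with its exact Poisson 95% interval. Adm stands at 3.96 and 4.22 CPM in the normal libraries and at 22.2 CPM in OVA-induced Rab44-KO lungs, Apln at 68.1 and 69.8 against 16.6 CPM, and Calcrl, Ednrb and Kdr are lowest in OVA-induced WT lungs.

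The genotypes were closer in normal than in OVA-induced lungs. Of the 10 genes, 0 differed by over 2-fold between Rab44-KO and WT under normal conditions. There, 2.77% of the 18718 genes that reached 10 counts in either library were over 2-fold higher in Rab44-KO and 2% were lower. Under OVA-induced conditions 2 of the 10, Adm and Vwf, were over 2-fold higher and 0 were over 2-fold lower, against 8.4% and 7.34% of 19259 genes. The median log2FC of the 10 genes was 0.02 in normal and 0.36 in OVA-induced lungs, beside 0.00 and -0.02 over all genes. In OVA-induced lungs 7 genes were higher in Rab44-KO with an interval wholly above 0 (Adm, Vwf, Calcrl, Ednrb, Kdr, Plvap and Ramp2), Car4 and Apln were lower, and the interval of Gpihbp1 included 0. By the same rule 2 of the 10 were higher and 4 lower in normal lungs, and 4 intervals included 0. At high counts these intervals are narrow, so small shifts pass, and the share of all genes passing by interval was not computed. The list is small, and its count over 2-fold depended on Vwf, which stood at the threshold.

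**Figure D2:**
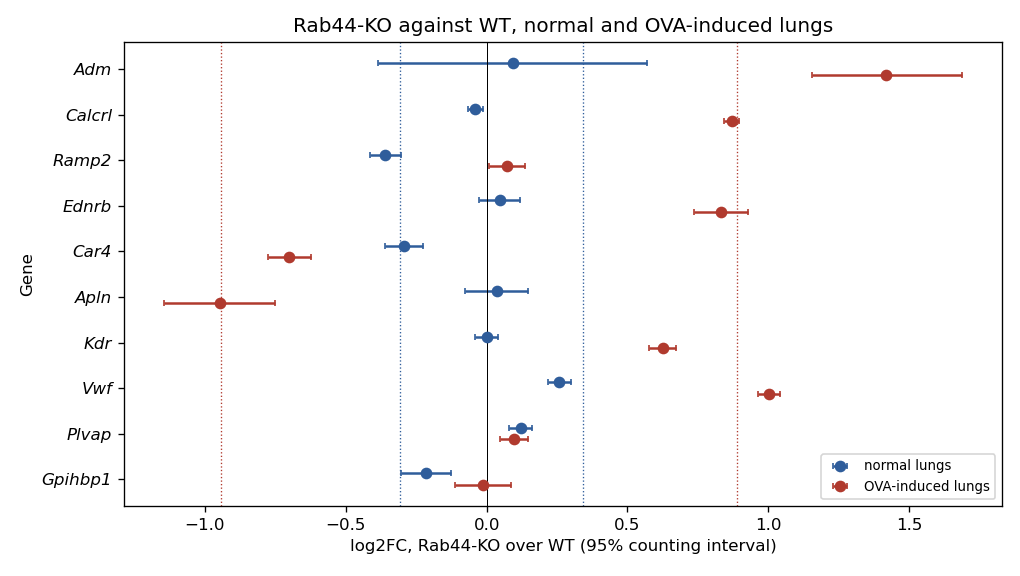
Log2 fold change of Rab44-KO over WT (horizontal axis) for each of the 10 genes, in normal and in OVA-induced lungs, with the exact 95% counting interval and 1 library per condition. In normal lungs the points lie between -0.36 and 0.26, and in OVA-induced lungs they spread from -0.95 (Apln) to 1.42 (Adm).

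From normal to OVA-induced conditions most of these endothelial genes were lower in both genotypes, though fewer were with the length trend removed. Ramp2, Ednrb, Kdr and Gpihbp1 were lower by more in WT, and Apln, Car4 and, by 0.02, Plvap by more in Rab44-KO lungs. With the length trend removed Ramp2 and Gpihbp1 stood at 0.04 and 0.01 in Rab44-KO lungs. Plvap was then lower by more in WT, at -0.67 against -0.44 in Rab44-KO lungs. In WT lungs 1 of the 10, Adm, was over 2-fold higher and 2, Ednrb and Apln, were over 2-fold lower, against 8.99% and 5.2% of 19023 genes. Adm was at 0.93 with the length trend removed and at 0.89 in TPM, and so not over 2-fold in WT under these settings. In Rab44-KO lungs Adm was over 2-fold higher and Apln over 2-fold lower, 1 gene each way, against 6.44% and 3.85% of 19073 genes. The median log2FC was -0.57 in WT and -0.23 in Rab44-KO lungs, beside 0.00 and -0.01 over all genes, and the second was -0.12 with the length trend removed and -0.11 in TPM. The comparison of genotypes in OVA-induced lungs and that of OVA-induced with normal WT lungs share the OVA-induced WT library, so their values are not independent.

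**Figure D3:**
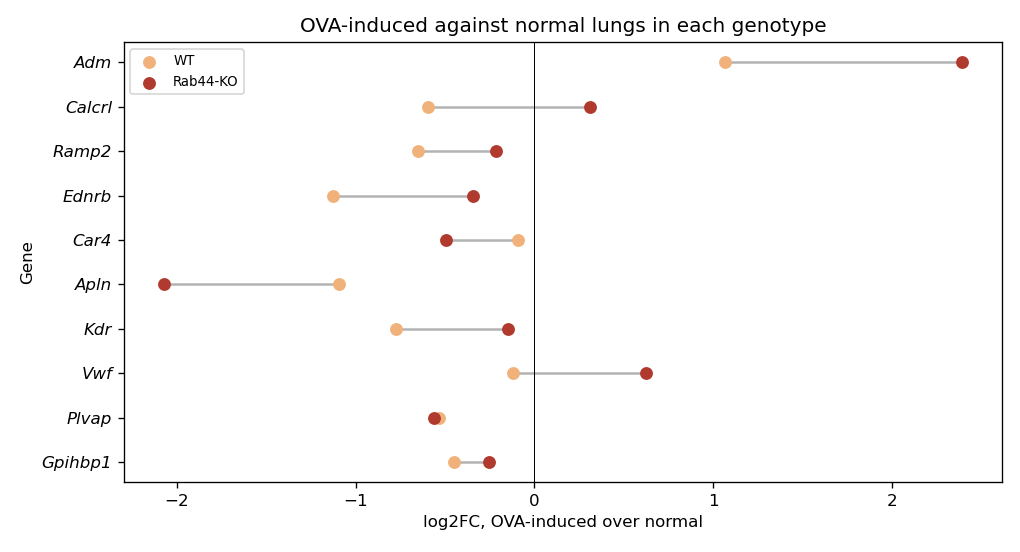
Log2 fold change of OVA-induced over normal lungs (horizontal axis) for each of the 10 genes, in WT and in Rab44-KO mice, joined by a line, with 1 library per condition. In WT all but Adm lie below 0, and in Rab44-KO Adm, Vwf and Calcrl lie above 0, at 2.39, 0.62 and 0.31.

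Adm (chr7:110627661-110629820, plus strand, GRCm38) had 76 counts in the WT and 77 in the Rab44-KO library of normal lungs, and 161 and 433 after OVA, or 3.96, 4.22, 8.31 and 22.2 CPM. The normal genotypes overlapped within counting error, both OVA-induced libraries were higher, and the Rab44-KO library was the highest. The ratio of Rab44-KO to WT was 1.07-fold in normal lungs (log2FC 0.09, interval -0.38 to 0.57) and 2.67-fold in OVA-induced lungs (1.42, 1.15 to 1.69). OVA-induced over normal was 2.10-fold in WT (1.07, 0.67 to 1.48) and 5.26-fold in Rab44-KO lungs (2.39, 2.04 to 2.77). Of the genes reaching 100 counts in either library Adm ranked 168th from the highest of 13704 for Rab44-KO over WT in OVA-induced lungs, and 71st of 13484 for OVA-induced over normal in Rab44-KO. The log2FC of OVA-induced over normal was 1.33 larger in Rab44-KO than in WT, with a counting interval of 0.80 to 1.85. Adm is short, at 0.369 of the median gene length, and with the length trend removed its value between the OVA-induced genotypes was 1.79. The opposite-strand gene Gm28863, which overlaps Adm, had 18, 19, 45 and 167 counts in the 4 libraries, and since the strand setting of the counting is not given in the sources used here, reads of this pair cannot be told apart.

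The adrenomedullin receptor chain and its accessory proteins did not follow a single pattern. Calcrl (chr2:84330626-84425411, minus strand) had 1292 CPM in WT and 1257 in Rab44-KO for normal mice, and 855 and 1563 CPM after OVA. It was thus lowest in OVA-induced WT and highest in OVA-induced Rab44-KO lungs. Between genotypes it was 0.97-fold in Rab44-KO under normal conditions (log2FC -0.04, interval -0.07 to -0.01) and 1.83-fold under OVA-induced conditions (0.87, 0.84 to 0.90). OVA-induced over normal was -0.60 (-0.62 to -0.57) in WT and 0.31 (0.29 to 0.34) in Rab44-KO lungs on the log2 scale, so the direction differed between the genotypes.

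Ramp2 (chr11:101246028-101259546, plus strand), whose protein carries the Calcrl chain to the cell surface, had 319, 248, 203 and 214 CPM. Normal WT was the highest library, and the OVA-induced libraries were the lowest and close to each other. On the log2 scale Rab44-KO over WT was -0.36 (-0.42 to -0.30) in normal and 0.07 (0.01 to 0.14) in OVA-induced lungs. The latter value moved to 0.63 with the length trend removed, because Ramp2 is among the shorter genes, at 0.231 of the median length. For OVA-induced over normal the log2FC was -0.65 (-0.71 to -0.59) in WT and -0.22 (-0.28 to -0.16) in Rab44-KO, and the second turned to 0.04 with the length trend removed. In the annotation 26.2% of its 150-base windows are shared with Vps25, so some of its reads could be assigned to either gene. The ratio of Calcrl to Ramp2, in TPM, was 0.708, 0.884, 0.735 and 1.28, and was above 1 only in OVA-induced Rab44-KO lungs. The log2FC between the OVA-induced genotypes was 0.80 larger for Calcrl than for Ramp2, but 0.17 larger with the length trend removed.

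The list of the adrenomedullin and CGRP system held 10 genes beside Adm, Calcrl and Ramp2, of which 8 were measured. Of these 8, 1 (Calca) was over 2-fold higher and 0 were lower in OVA-induced Rab44-KO than WT lungs, near the 8.4% and 7.34% of all genes, with a median of 0.26. Removing the length trend gave 2 over 2-fold higher and a median of 0.31. Calca, which encodes calcitonin and alpha-CGRP, rested on 18, 22, 19 and 48 counts, and its log2FC of 1.32 had an interval of 0.53 to 2.18. Ramp1, the CGRP receptor partner, went the other way, with 428, 395, 611 and 381 counts and a log2FC of -0.69 (-0.88 to -0.50). Crcp, also on the list, did so too, with 482, 406, 451 and 321 counts and -0.50 (-0.71 to -0.29). Calcb, with 5, 11, 20 and 20 counts, was at -0.01 (-0.98 to 0.96). Ramp3, the alternative adrenomedullin partner, had 77, 103, 138 and 166 counts and a log2FC of 0.26 (-0.08 to 0.59), which includes 0. Ackr3, a scavenging receptor for adrenomedullin and CXCL12, had 811, 879, 561 and 981 counts and was, like Calcrl, lowest in the WT and highest in the Rab44-KO library after OVA, 0.80 (0.65 to 0.95) apart on the log2 scale. Pam, the enzyme that amidates adrenomedullin and other peptides, had 0.26 (0.20 to 0.31), and Mme, a peptidase that degrades them, had 0.51 (0.44 to 0.59). Adm2 had at most 6 counts in any library and was not measured.

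Among the aerocyte genes the pattern split. Ednrb (chr14:103814625-103844402, minus strand), the endothelin B receptor, which clears endothelin in the lung, had 157 CPM in WT and 162 in Rab44-KO for normal mice, and 71.7 and 128 CPM after OVA. The WT library after OVA stood below all others. OVA-induced over normal was -1.13 (-1.22 to -1.04) in WT, a level 2.18-fold lower, and -0.34 (-0.42 to -0.26) in Rab44-KO lungs. Rab44-KO over WT was 0.05 (-0.03 to 0.12) in normal and 0.83 (0.74 to 0.93) in OVA-induced lungs, and the latter stayed at 0.83 with the length trend removed. The cardiac muscle markers were also lowest in the OVA-induced WT library.

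Car4 (chr11:84957786-84966044, plus strand), a membrane carbonic anhydrase of the capillary surface, moved differently, with 205, 167, 192 and 118 CPM. Its Rab44-KO level was below the WT level under both conditions, with a log2FC of -0.29 (-0.36 to -0.22) in normal and -0.70 (-0.78 to -0.62) in OVA-induced lungs. In WT lungs OVA-induced over normal was -0.09 (-0.16 to -0.03), and in Rab44-KO lungs it was -0.50 (-0.58 to -0.42), but these values came closer with the length trend removed, at -0.26 and -0.35. The gene is short, and with the length trend removed its value between the OVA-induced genotypes was -0.34. The count ratio of Ednrb to Car4 was 0.766, 0.968, 0.373 and 1.08, so these markers of the same cell type did not keep a fixed proportion.

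Apln (chrX:48025146-48034853, minus strand), the apelin precursor, had 1308 counts in WT and 1274 in Rab44-KO for normal mice, and 619 and 323 after OVA, or 68.1, 69.8, 32.0 and 16.6 CPM. The normal libraries were alike within counting error, and the OVA-induced Rab44-KO library was the lowest. The genotypes were 0.04 (-0.08 to 0.15) apart in normal lungs, whereas Rab44-KO over WT was -0.95 (-1.15 to -0.75) after OVA, a level 1.93-fold lower. OVA-induced over normal was -1.09 (-1.23 to -0.95) in WT and -2.07 (-2.26 to -1.90) in Rab44-KO, where the level was 4.21-fold lower. This placed Apln 12th from the lowest of 13484 genes with at least 100 counts in that comparison. The receptor gene Aplnr, of general capillary cells, was lower after OVA by nearly the same amount in each genotype. It had 1690, 1758, 924 and 992 counts, with -0.88 (-1.001 to -0.77) in WT and -0.92 (-1.03 to -0.81) in Rab44-KO lungs for OVA-induced over normal, and 0.09 (-0.04 to 0.22) between the OVA-induced genotypes.

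Among the list of 12 aerocyte markers, which includes Car4, Ednrb, Apln and Kdr, 0 were over 2-fold higher and 1 was over 2-fold lower in OVA-induced Rab44-KO than WT lungs, with a median of 0.29, and the 8 that are none of the 10 genes also had a median of 0.29. These counts are within 1 gene of the 8.4% and 7.34% of all genes, and with the length trend removed they became 1 higher and 0 lower. The 1 lower gene, Rprml, had only 62, 60, 40 and 18 counts. From normal to OVA-induced conditions all 12 were negative in WT lungs, with a median of -0.68. Of them 3 (Ednrb, Apln and Fibin) were over 2-fold lower, against 5.2% of all genes. In Rab44-KO lungs 10 of the 12 were negative, with a median of -0.36. There 2 (Apln and Rprml) were over 2-fold lower, against 3.85% of all genes. The summed level of the 12 was 3895, 3713, 2516 and 3145 CPM.

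Kdr (chr5:75932827-75978458, minus strand) had 499, 499, 292 and 450 CPM. OVA-induced WT was the lowest, and the normal genotypes were equal, at 0.00 (-0.04 to 0.04). After OVA the Rab44-KO level was 0.63 (0.58 to 0.67) above WT on the log2 scale, and 0.38 with the length trend removed, since Kdr is long, at 2.08 times the median length. The change from normal to OVA-induced lungs was -0.77 (-0.82 to -0.73) in WT and -0.15 (-0.19 to -0.11) in Rab44-KO, or -0.66 and -0.26 with the length trend removed. In the VEGF list of 10 genes 2 were over 2-fold higher between the OVA-induced genotypes, Flt1 and Vegfc, and 0 were lower, against 8.4% and 7.34% of all genes, with a median of 0.54, or 1 higher and a median of 0.39 with the length trend removed. Flt1, a decoy receptor for VEGF, had 6459, 5853, 3837 and 8854 counts and a log2FC of 1.20 (1.14 to 1.25). Vegfa, the principal ligand, had 18924, 16239, 11190 and 16495 counts and 0.55 (0.52 to 0.59), and Vegfc, the lymphatic growth factor, had 313, 357, 295 and 635 counts and 1.10 (0.89 to 1.30). Vegfb was the lowest of the list at -0.49 (-0.70 to -0.29).

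The endothelin genes around Ednrb lay mostly on the same side. Of 7 listed, 5 were measured, 0 passed 2-fold either way between the OVA-induced genotypes, where 8.4% and 7.34% of all genes were over 2-fold higher and lower, and their median was 0.54. Edn1, the endothelial ligand, had 572, 482, 787 and 1163 counts and was highest in OVA-induced Rab44-KO lungs, at 0.55 (0.42 to 0.69) over WT and 1.18 (1.02 to 1.33) over normal Rab44-KO lungs. Ece1, the enzyme that matures the peptide, had 0.54 (0.49 to 0.60), and Ednra, the receptor of smooth muscle, had 0.39 (0.28 to 0.50).

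The general capillary genes Plvap and Gpihbp1 had the smallest genotype differences of the 10 after OVA beside Ramp2, though all 3 were larger with the length trend removed. Plvap (chr8:71497765-71511752, minus strand) had 474, 515, 327 and 349 CPM, and both OVA-induced libraries were lower than both normal ones. The genotype difference was 0.12 (0.08 to 0.16) in normal and 0.10 (0.05 to 0.15) in OVA-induced lungs, where it was 0.38 with the length trend removed, and OVA-induced over normal was -0.54 in WT and -0.56 in Rab44-KO, a difference of -0.02 (-0.09 to 0.04). With the length trend removed these values moved apart, to -0.67 and -0.44. Gtpbp3 overlaps it on the opposite strand with 346 to 496 counts, far below the counts of Plvap, 6329 to 9403. Gpihbp1 (chr15:75596628-75599481, plus strand) had 117, 101, 85.8 and 85.0 CPM, with a genotype difference of -0.21 (-0.30 to -0.13) in normal lungs and -0.01 (-0.11 to 0.09) after OVA. The latter sign is not fixed, since the value was 0.55 with the length trend removed and Gpihbp1 is the shortest of the 10, at 0.218 of the median length. From normal to OVA-induced conditions Gpihbp1 was lower in both genotypes, at -0.45 (-0.54 to -0.36) in WT and -0.25 (-0.35 to -0.15) in Rab44-KO, where it was 0.01 with the length trend removed.

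The wider list of 12 general capillary markers, Plvap and Gpihbp1 included, had 3 genes over 2-fold higher and 0 lower in OVA-induced Rab44-KO than WT lungs, against 8.4% and 7.34% of all genes, with a median of 0.55, and 0.59 over the 10 without them. The 3 were Ptprb, an endothelial phosphatase, at 1.55, Cd93, a receptor of endothelial adhesion, at 1.26, and Tek, the angiopoietin receptor, at 1.01. Ptprb and Tek are also on the list of pan-endothelial markers below, so they do not mark this cell type alone. With the length trend removed 2 of the 12 were over 2-fold higher, with Ptprb at 1.09 and Tek below 2-fold at 0.97. In WT lungs the list median for OVA-induced over normal was -0.57, and in Rab44-KO lungs -0.13, the latter -0.05 with the length trend removed.

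Vwf (chr6:125546774-125686679, plus strand) had 456 CPM in WT and 545 in Rab44-KO for normal mice, and 420 and 840 CPM after OVA, and the last library stood above the others. Rab44-KO over WT was 0.26 (0.22 to 0.30) in normal and 1.001 (0.96 to 1.04) in OVA-induced lungs, just past 2-fold, and the latter was 0.67 with the length trend removed. OVA-induced over normal was -0.12 (-0.16 to -0.07) in WT, which turned to 0.08 with the length trend removed, and 0.62 (0.59 to 0.66) in Rab44-KO lungs. Platelets also carry Vwf transcript. The summed level of 9 platelet markers was 85.7, 49.0, 61.5 and 129 CPM, all 9 were above 0 in every library, and 6 of the 9 were over 2-fold higher in OVA-induced Rab44-KO than WT lungs, against 8.4% of all genes. In normal lungs the platelet markers went the other way, with a median log2FC of -1.04 and 5 over 2-fold lower in Rab44-KO, against 2% of all genes, while Vwf was slightly higher. The part of platelets in the Vwf level was not tested.

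The 20 pan-endothelial markers set the level of endothelial RNA beside which these genes can be read. Their summed level was 6578, 6364, 4854 and 6898 CPM, lowest in the library with the highest leukocyte markers. The sum leans on abundant genes. Ptprb alone, a long gene at 3.47 times the median length, had 947, 1020, 440 and 1291 CPM. Between the OVA-induced genotypes 2 of the 20, Ptprb and Tek, were over 2-fold higher and 0 lower, near the 8.4% and 7.34% of all genes. The median of the 20 was 0.15 and their range -0.54 to 1.55. Adm, Vwf, Calcrl, Ednrb and Kdr lay above that median but inside that range, whereas Car4, at -0.70, and Apln, at -0.95, lay below it. With the length trend removed the median was 0.35 and the range -0.28 to 1.11, with Adm above it at 1.79 and Car4 and Apln still below. For OVA-induced over normal in WT lungs the range was -1.11 to 0.53, with Adm above and Ednrb just below it at -1.13, and in Rab44-KO lungs it was -0.71 to 0.98, with Adm above at 2.39 and Apln below at -2.07. In normal lungs the range of Rab44-KO over WT was -0.24 to 0.30, with Ramp2 and Car4 below it. After removal of the length trend the WT range for OVA-induced over normal was -0.90 to 0.42, with Ednrb and Apln below it at -1.13 and -1.10.

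Other lists had these values in the same comparison, where the shares of all genes were 8.4% higher and 7.34% lower. Of 10 arterial markers 0 passed 2-fold, with a median of 0.03, and of 8 venous markers 2, Slc6a2 and Vwf, were over 2-fold higher and 1, Ackr1, with 7 to 43 counts, was lower, with a median of -0.24. Of 8 pericyte markers 1 was over 2-fold higher, Notch3 at 1.12, with a median of 0.24. Outside the vessels, the leukocyte list had 5 of 10 genes over 2-fold lower in OVA-induced Rab44-KO lungs and a median of -0.99, and the cardiac muscle list had 4 of 8 over 2-fold higher and a median of 1.05. With the length trend removed 1 of 10 leukocyte markers was over 2-fold lower (median -0.73) and 6 of 8 cardiac markers were over 2-fold higher (median 1.38). Ryr2, the calcium release channel of heart muscle, reached 2.25 and Myh6, a heart myosin, 1.79. Alveolar type 1 markers had a median of 0.15 and alveolar type 2 markers of -0.51. The medians were -0.22 for smooth muscle, -0.33 for fibroblasts, 0.11 for mesothelium and -0.16 for erythroid cells, and with the length trend removed -0.04, -0.52, 0.37 and 0.32, so the erythroid sign turned. The arterial median moved to 0.22 and the alveolar type 1 median to 0.25, and 0 pericyte and 0 venous markers were then over 2-fold either way.

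In a list of 20 hypoxia-responsive genes, with Adm and Apln among them, 3 were over 2-fold higher (Adm, Epas1 and Hif3a) and 1 was lower (Egln3) in the Rab44-KO library after OVA, against 8.4% and 7.34% of all genes, with a median of 0.01. With the length trend removed 2 were over 2-fold higher. Epas1, which encodes the hypoxia-inducible factor chain of endothelium, had 53789, 53838, 31710 and 69899 counts and a log2FC of 1.13 (1.11 to 1.15). Egln3, a prolyl hydroxylase that marks such chains for destruction and is itself a target, went the other way, with 24, 43, 158 and 65 counts and -1.29 (-1.73 to -0.87).

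The length trend touched the 10 genes unequally. With it removed, the values for Rab44-KO over WT in OVA-induced lungs were 1.79 for Adm, 0.83 for Ednrb, 0.80 for Calcrl, 0.67 for Vwf, 0.63 for Ramp2, 0.55 for Gpihbp1, 0.38 for Kdr and Plvap, -0.34 for Car4 and -0.81 for Apln. Ednrb kept its value, and Calcrl moved by little, from 0.87 to 0.80, though beyond its counting interval. The shorter genes went up and the long genes Kdr and Vwf went down, so that 8 of the 10 lay above 0 and only Adm was over 2-fold higher.

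**Figure D4:**
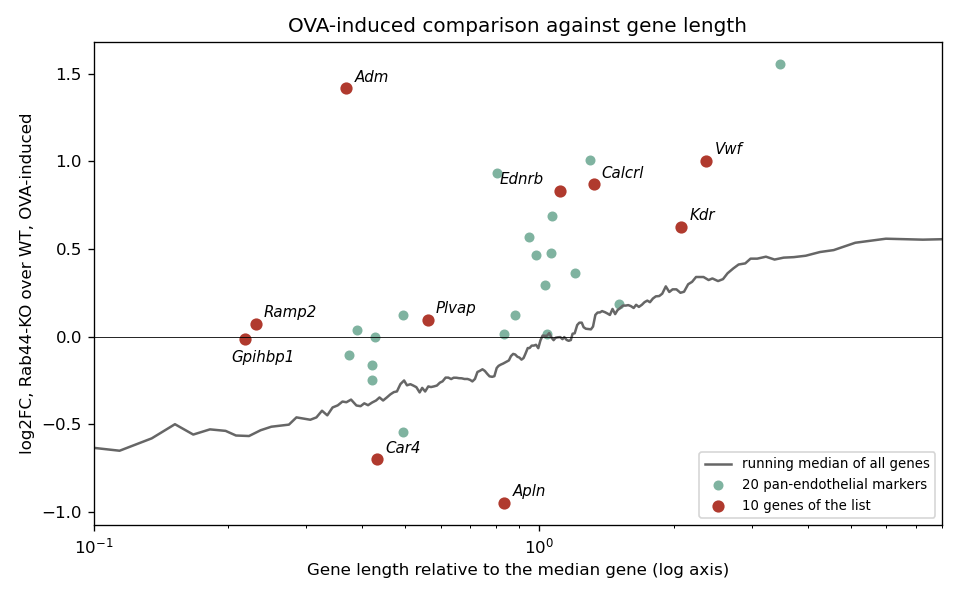
Log2 fold change of Rab44-KO over WT in OVA-induced lungs (vertical axis) against gene length relative to the median gene (horizontal, log axis), with the running median over all genes as a line, the 20 pan-endothelial markers in green and the 10 genes in red. The line runs upwards from short to long genes, Adm lies 1.79 above it, and Car4 and Apln lie 0.34 and 0.81 below it.

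The genes nearest to Adm over the 4 libraries, by the Euclidean distance between log2 CPM values centred on each gene's mean among 12314 genes, were Csrnp1 at 0.316, Acot1 at 0.372, Gm30003 at 0.426, Adamts15 at 0.454 and Errfi1 at 0.489. None of them is an endothelial marker on the lists, but the lists hold few of these 12314 genes, so this says nothing about cell type. For Car4 they were closer, with Gimap1 at 0.0266 and Rnd2 at 0.0565 among 12313 genes. With only 4 points per gene such likeness describes these libraries alone.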

How the data were processed

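RNA of whole lungs, 1 library for each genotype (WT, Rab44-KO) and condition (normal, OVA-induced), had been sequenced by the study as stranded 150-bp read pairs, aligned to GRCm38 with HISAT2 and counted with featureCounts; versions and the strand and multi-mapping settings are not given in the sources used here. The deposited counts are raw whole reads per gene, and the deposited TPM values are the authors' own, per gene length and summing to 1000000 per library. Here the counts of all 41079 genes were scaled with edgeR 4.0.16 TMM (factors 0.973 to 1.02), and log2 CPM and log2FC used a prior count of 0.125. Genes reaching 10 counts in either library of a pair were compared, and over 2-fold means a log2FC beyond 1 or -1. With 1 library per condition no test was run: count ratios carry exact Clopper-Pearson intervals, CPM exact Poisson intervals, and differences of 2 log2FC a normal interval from the 4 counts. These 95% intervals cover counting error only, and reads without molecular identifiers are not independent molecules. Relative length was taken from count over TPM, and the length trend was removed with a running median over 501 genes in order of length. Gene positions are from GENCODE M21 (GRCm38) and promoters from RefSeq (GRCm38.p6); no coordinates were converted. TPM was used to compare genes within a library.

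Named genes are the 10 genes, the genes of their pathway lists, and for each marker list those over 2-fold or furthest from 0 among genes with at least 100 counts. The genes and the lists were chosen with earlier results of these data known. The code was tested on simulated counts. Alternatives were DESeq2 1.42.0 size factors, total counts, TMM without immunoglobulin genes, TMM on the pair compared, a prior count of 2, thinning to equal depth, TPM with a pseudocount of 0.1, and removal of the length trend.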

Additional observations from a re-analysis of the deposited data

Results flagged for a closer look

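The direction of Calcrl, Ramp2 and Vwf differed between conditions or genotypes, each with 1 library per condition, so the differences were not tested. For Calcrl, Rab44-KO over WT was -0.04 in normal and 0.87 in OVA-induced lungs, and OVA-induced over normal was -0.60 in WT and 0.31 in Rab44-KO, a difference of 0.91 either way. For Ramp2, Rab44-KO over WT was -0.36 in normal and 0.07 in OVA-induced lungs, a difference of 0.43. For Vwf, OVA-induced over normal was -0.12 in WT and 0.62 in Rab44-KO, a difference of 0.74, and the WT value turned to 0.08 with the length trend removed.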

How the results depend on the processing

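Each value of the 10 genes was recomputed under 8 other settings, 320 values in all, of which 263 stayed within the counting interval of the value reported, 57 moved beyond it, and 10 had the other sign. Of those 10, 4 were Kdr in normal lungs, near 0. The others were Gpihbp1 for Rab44-KO over WT in OVA-induced lungs (0.05 on total counts, 0.31 in TPM, 0.55 with the length trend removed) and, with the length trend removed, Vwf for OVA-induced over normal in WT (0.08) and Ramp2 and Gpihbp1 in Rab44-KO lungs (0.04 and 0.01). Between the OVA-induced genotypes the median of the 10 genes was 0.69 in TPM and 0.59 with the length trend removed. The number over 2-fold higher was 4 in TPM (Adm, Vwf, Calcrl and Ednrb), where all genes shifted by 0.33, and 1 (Adm) with TMM without immunoglobulin genes, thinned counts, the length trend removed, or the whole interval required beyond 2-fold. For OVA-induced over normal, the WT median was -0.74 in TPM and -0.66 with the length trend removed. There 0 genes were over 2-fold higher under TPM, the length trend or the whole interval, and 1 was lower under the last. In Rab44-KO lungs the median was -0.11 in TPM and -0.12 with the length trend removed, and the median difference between genotypes was 0.53 in the values reported and 0.83 in TPM. No paired analysis was possible because each condition has 1 library and the labels carry no replicate numbers; leaving out a replicate was not possible either, and an additive fit over the 4 libraries was not run. Adm, with 76 to 433 counts, is the gene that depth limits most.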

Other observations

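The medians of lymphatic and of activated endothelium markers had opposite signs between the OVA-induced genotypes. Of 8 lymphatic markers 7 were measured and 2 were over 2-fold higher in the Rab44-KO library, against 8.4% of all genes, with a median log2FC of 0.97, or 1 gene and a median of 0.53 with the length trend removed. Lyve1, a hyaluronan receptor of lymphatic vessels, stood at 1.28, Prox1, the transcription factor of lymphatic identity, at 1.19, and Reln at 0.98, while Ccl21a, a lymphatic chemokine, stood at -0.62 and Pdpn, which alveolar type 1 cells also express, at -0.43. Prox1 had 56 to 129 counts. The summed level of the lymphatic list was 666 CPM in WT and 691 in Rab44-KO for normal mice, and 466 and 693 CPM after OVA. Of 8 markers of activated endothelium 0 were over 2-fold higher and 3 (Cd74, Ackr1 and Sele) were over 2-fold lower, the latter against 7.34% of all genes, with a median of -0.69, or 2 genes and a median of -0.44 with the length trend removed. Cd74, the MHC class II chaperone, which leukocytes also express, stood at -1.56, while Ackr1 and Sele had at most 61 counts. Lrg1 stood at -0.81, and Selp, the adhesion molecule P-selectin, which platelets also carry, at -0.57. In WT lungs 5 of these 8 were over 2-fold above the normal level after OVA, against 8.99% of all genes, with a median of 1.26. In Rab44-KO lungs the median was -0.01, and 0.06 with the length trend removed.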
